A study of Mus musculus with 714 samples.

Results

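Among the cells taken from the mouse uterus at postnatal day 14 (pnd14), a minority carried counts of Ovgp1, the gene of oviductin, a glycoprotein that is better known from the oviduct than from the uterus. Cells were first limited to those whose counts of the smooth muscle genes Cnn1, Des, Myl9 and Mylk summed to less than 5, which removed 39 pnd14 cells. Of the cells left, 26 had at least 2 counts of Ovgp1 and are called Ovgp1-high here, and 88 cells had 0 counts and are called Ovgp1-zero. The other 20 cells had exactly 1 count and entered neither group. The series holds 714 cells in all. Because Ovgp1 and the muscle genes chose the cells, their own values are a description, and the comparison concerns the other genes.

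The cells were CD326+ (EpCAM+) epithelial cells of the uterus of ICR mice, an outbred strain, at pnd0, 7, 14, 28 and 56. Both groups share strain, tissue, sort and age, and no treatment or genetic change is named. The counts came from CEL-seq, a single-cell method that copies RNA by linear amplification and counts transcripts by their 3' ends. No label names an animal or a litter, so all pnd14 cells stand as 1 sample, cells are not replicates, and no p-value is given.

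The Ovgp1-high cells held 50293 counts in all and the Ovgp1-zero cells 174488, with a median of 1794 counts per Ovgp1-high cell and 1767.5 per Ovgp1-zero cell. After every cell was thinned to 1000 counts, the median number of genes detected was 516.5 in Ovgp1-high cells and 508.5 in Ovgp1-zero cells. Depth per cell was thus close between the groups. A level below is the sum of a gene over the cells of a group per 1000000 counts (CPM), and every interval is an exact 95% interval that covers counting error only.

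Oviductin is secreted by the non-ciliated secretory cells of the oviduct and coats the ovulated egg and the early embryo. The oviduct and the uterus both arise from the Mullerian duct, whose epithelium is patterned along its length after birth in the mouse. The oviduct epithelium also contains ciliated cells, whose multiciliogenesis programme uses factors such as Foxj1, Mcidas and Ccno. Ltf encodes lactotransferrin, an iron-binding antimicrobial protein that oestrogen induces in the mouse uterus. Wfdc18 encodes a small secreted protein of the whey acidic protein family, and Wt1 a zinc finger transcription factor found in the oviduct, the mesothelium and the uterine stroma.

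The start-site regions of Ovgp1 and of the secreted-protein genes that went with it in the same cells are shown because steroid hormones act on several of these genes. The sequences are RefSeq promoters of build GRCm38.p6, from 250 bases before to 50 bases after the start site, all on the plus strand. Capitals mark the nuclear receptor half-site AGGTCA or the TATA box TATAAA. The Ovgp1 region lies at chr3:105973552-105973851, the Ltf region at chr9:111019042-111019341 and the Wfdc18 region at chr11:83708754-83709053.
Ovgp1: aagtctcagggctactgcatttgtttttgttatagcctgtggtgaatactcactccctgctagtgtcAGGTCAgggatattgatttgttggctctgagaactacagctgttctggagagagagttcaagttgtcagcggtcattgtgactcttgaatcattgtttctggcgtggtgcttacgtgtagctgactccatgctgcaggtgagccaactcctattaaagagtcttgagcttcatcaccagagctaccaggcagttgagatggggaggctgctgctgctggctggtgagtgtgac
Ltf: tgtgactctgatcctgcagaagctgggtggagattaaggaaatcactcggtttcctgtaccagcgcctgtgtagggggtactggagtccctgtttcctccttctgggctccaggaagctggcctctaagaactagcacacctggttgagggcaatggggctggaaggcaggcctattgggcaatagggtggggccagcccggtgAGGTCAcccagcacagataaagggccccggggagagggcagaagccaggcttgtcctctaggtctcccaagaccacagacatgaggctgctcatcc
Wfdc18: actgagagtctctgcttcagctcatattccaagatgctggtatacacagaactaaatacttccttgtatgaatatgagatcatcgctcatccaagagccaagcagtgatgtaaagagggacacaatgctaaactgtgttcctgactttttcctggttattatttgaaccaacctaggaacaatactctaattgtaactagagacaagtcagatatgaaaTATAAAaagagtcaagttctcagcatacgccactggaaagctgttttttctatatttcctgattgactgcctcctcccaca
Counted from the start site, the half-site began at base -46 in Ltf and lay farther upstream in Ovgp1, and the Wfdc18 region held none. The TATA box of Wfdc18 began at base -31. On either strand, AGGTCA was present in 16.3% of 32851 promoters of the same length and TATAAA in 13.6%. The palindromic oestrogen response element, GGTCA and TGACC with any 3 bases between them, was searched on both strands as an exact match only. In that form it was present in 0.07% of promoters and in none of these 3 windows. The Ovgp1 window holds ggtcattgtgact, left unmarked, which differs from the element at its last base. The frequency of such near matches was not counted. A match of letters describes the window and does not show that a factor binds there.

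Ovgp1 was concentrated in few cells. The 26 Ovgp1-high cells held 640 Ovgp1 counts, 79.6% of those at pnd14, and they made up 19.4% (13.1% to 27.1%) of the cells under the muscle limit. Per cell, the median count was 5, the level ran from 620.2 to 60652 CPM of the cell's own counts, and the summed level was 12725 CPM against 0 CPM in Ovgp1-zero cells. The distribution had a gap, with 15 cells at 2 to 7 counts and 11 cells at 14 counts or more, and the 11 cells held 593 of the 640 counts. Just inside the limit of 2 counts lay 7 cells with exactly 2, and just outside it lay the 20 cells with 1.

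Cells titled with consecutive numbers form runs of 96, and the pnd14 cells came from runs 3, 4 and 7. The labels do not say what the runs are. Ovgp1-high cells were present in each: 8 in run 3, 4 in run 4 and 14 in run 7, which is 14.3%, 20% and 24.1% of the cells under the muscle limit. The Ovgp1-zero cells numbered 43, 13 and 32 in the same runs.

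As a gauge of free RNA, the 16 pnd14 cells with 20 or more muscle counts were examined, at a median depth of 1939.5 counts against 1794 under the muscle limit. Of these muscle-rich cells, 4 (25%, 7.27% to 52.4%) had an Ovgp1 count and 1 had 2 or more, with 5 counts in all. Under the muscle limit 46 cells (34.3%, 26.3% to 43%) had a count. A single count was therefore about as frequent in the muscle-rich cells within the counting interval. The summed level was 2455 CPM under the limit against 151.4 CPM in the muscle-rich cells. That contrast rested on the 11 cells with 14 counts or more, which held 593 of the 660 counts under the limit. Whether the cells with 1 to 7 counts stood above free RNA was not tested.

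**Figure D1:**
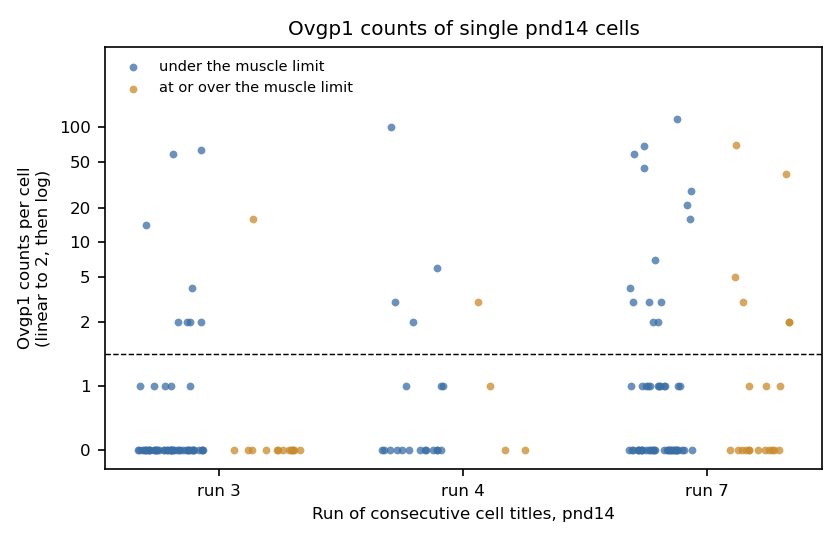
Ovgp1 counts of each pnd14 cell (vertical axis, linear up to 2 and logarithmic above) in runs 3, 4 and 7, for cells under the muscle limit and cells at or over it. The dashed line separates cells with 2 or more counts, and 11 cells under the muscle limit lie at 14 counts or more.

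The named marker genes of these cells were then compared. Wfdc18 had counts in 8 of 26 Ovgp1-high cells, from 2 to 16 with a median of 8 among the cells with a count, against 3 of 88 Ovgp1-zero cells with 1 or 2 counts each. Its level was 1292 CPM (997 to 1647) in Ovgp1-high cells and 22.9 CPM (6.25 to 58.7) in Ovgp1-zero cells, a log2 ratio of 5.82 (4.39 to 7.74). Most Ovgp1-high cells had no Wfdc18 count, and the ratio came from the cells that did. In run 7 the levels were 1308 CPM in Ovgp1-high and 47.6 CPM in Ovgp1-zero cells. In run 3 they were 879.4 CPM in Ovgp1-high cells and 0 CPM in Ovgp1-zero cells.

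Ltf had counts in 8 of 26 Ovgp1-high cells, from 1 to 27, against 7 of 88 Ovgp1-zero cells with 1 to 6. Its level was 1432 CPM (1120 to 1803) in Ovgp1-high cells and 114.6 CPM (70.01 to 177.02) in Ovgp1-zero cells, a log2 ratio of 3.64 (2.91 to 4.44). The ranges of single cells overlapped, and 4 Ovgp1-high cells exceeded the highest Ovgp1-zero cell. Within run 3 Ltf stood at 1691 CPM in Ovgp1-high and 199.3 CPM in Ovgp1-zero cells. Within run 7 it stood at 1539 CPM in Ovgp1-high and 31.7 CPM in Ovgp1-zero cells. Without the cell of the largest count the log2 ratio was 2.99.

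Wt1 had counts in 7 of 26 Ovgp1-high cells (26.9%, 11.6% to 47.8%) and 5 of 88 Ovgp1-zero cells (5.68%, 1.87% to 12.8%). Single cells reached 4 counts in the Ovgp1-high and 3 in the Ovgp1-zero group. Its level was 298 CPM (166.9 to 491.9) in Ovgp1-high and 57.3 CPM (27.5 to 105.4) in Ovgp1-zero cells, a log2 ratio of 2.38 (1.13 to 3.70). The log2 ratio was 0.60 when the muscle limit was dropped. Wt1 also marks mesothelium and stroma. The mesothelium list, of which 8 of 14 genes had a row, summed to 33 counts in 8 of 26 Ovgp1-high cells and 24 counts in 7 of 88 Ovgp1-zero cells, a log2 ratio of 2.25 (1.45 to 3.08). Without the Ovgp1-high cell of the largest sum it was 1.82 (0.93 to 2.71). Wt1 itself gave 15 and 10 of these counts and the complement gene C3 10 and 0. The other members with counts in Ovgp1-high cells were Rspo1, with 5 and 7, and Upk3b, with 3 and 5, the Ovgp1-high counts of each lying in 1 cell. The defining markers Msln and Lrrn4 have no row and were not analysed here, and the part of mesothelial RNA in the Wt1 difference was not tested.

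Wfdc18, Ltf and Wt1 were each counted in a larger share of Ovgp1-high than of Ovgp1-zero cells. At least 1 of the 3 genes was counted in 14 of 26 Ovgp1-high cells (53.8%), against 14 of 88 Ovgp1-zero cells (15.9%). Wfdc18 and Ltf were counted together in 6 Ovgp1-high cells and in 0 Ovgp1-zero cells. Only 3 Ovgp1-zero cells had a Wfdc18 count and 7 an Ltf count, so few joint cells were possible there. All 3 genes met in 2 Ovgp1-high cells. The other 12 Ovgp1-high cells had none of the 3 genes, so the Ovgp1-high cells were not uniform.

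**Figure D2:**
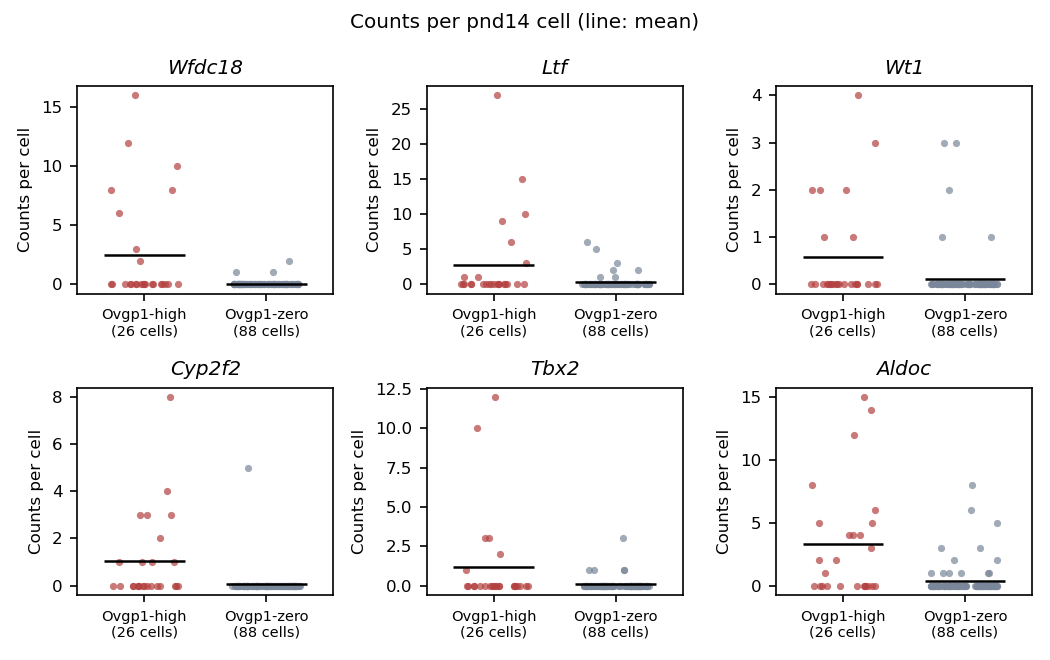
Counts per cell of 6 genes in the 26 Ovgp1-high and 88 Ovgp1-zero cells of pnd14, with a line at the mean of each group. Most cells of both groups sit at 0, and the highest cells of Wfdc18 (16 counts) and Ltf (27 counts) are Ovgp1-high.

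The fixed list of oviduct epithelium genes, 14 of 15 with a row and Wt1 among them, summed to 1054 CPM in Ovgp1-high and 630.4 CPM in Ovgp1-zero cells, a log2 ratio of 0.74 (0.24 to 1.23). Without the Ovgp1-high cell of the largest sum it was 0.49 (-0.06 to 1.02). Its members did not go one way. Pax8, a Mullerian epithelial transcription factor, had 0 counts in Ovgp1-high cells and 1 in Ovgp1-zero cells. Sox17, another factor of the duct, had 1 count in Ovgp1-high and 14 in Ovgp1-zero cells, and Hoxa9, a Hox gene of the anterior duct, had 1 and 0 counts in the same order of groups. Pax2 stood at 278 CPM in Ovgp1-high and 287 CPM in Ovgp1-zero cells, a log2 ratio of -0.04 (-1.01 to 0.84). C3, the complement component, had 10 counts in 3 Ovgp1-high cells, 7 of them in 1 cell, against 0 in Ovgp1-zero cells. With 3 counts set in place of the 0, its level was 11.6-fold higher in Ovgp1-high cells. Cftr, the chloride channel, had 6 counts in Ovgp1-high and 4 in Ovgp1-zero cells. C3 also belongs to the mesothelium list. The cells are called by their rule here.

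Epithelial identity was shared by both groups. Krt18, a keratin of simple epithelium, stood at 6363 CPM in Ovgp1-high and 5318 CPM in Ovgp1-zero cells, and it was counted in 26 of 26 Ovgp1-high and 85 of 88 Ovgp1-zero cells. Epcam, the gene of the sorted surface protein, stood at 556.7 CPM in Ovgp1-high and 395.4 CPM in Ovgp1-zero cells, a log2 ratio of 0.49 (-0.20 to 1.15). The tight junction gene Cldn3 had a log2 ratio of -0.04 (-0.24 to 0.16), and the secreted Wfdc2, an abundant protein of reproductive tract epithelium, one of -0.01 (-0.18 to 0.16). Esr1, the oestrogen receptor, had 497 CPM in Ovgp1-high and 412.6 CPM in Ovgp1-zero cells, a log2 ratio of 0.27 (-0.45 to 0.94).

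Across the 2324 genes with at least 20 counts over both groups, the median log2 ratio was -0.15, with quartiles of -0.79 and 0.52. At least 2-fold higher in Ovgp1-high cells were 12% of these genes, and at least 2-fold lower were 19.4%. With 26 cells on one side, the counting intervals of low genes are wide, so single genes were picked out by a rule for naming. Described outside that rule are the marker genes, members of the fixed gene lists and a neighbour of Wdr77. Some of these have fewer than 20 counts. For a gene to be named, 10% or more of the cells in the group where it was higher had to have a count, and the rule further asked for the same direction in the runs with at least 5 cells of each group (runs 3 and 7), and a 2-fold ratio without the cell of the largest count. Of the genes that met it, the first 20 on the higher side and the first 15 on the lower side were named, in order of the interval bound nearest to no difference.

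Among the genes on the higher side after Wfdc18 and Ltf, Cyp2f2 encodes a cytochrome P450 known from secretory club cells of the mouse airway. It was counted in 10 of 26 Ovgp1-high cells, with up to 8 counts, and in 1 of 88 Ovgp1-zero cells, with 5 counts. Its level was 536.9 CPM in Ovgp1-high and 28.7 CPM in Ovgp1-zero cells, a log2 ratio of 4.23 (2.83 to 5.96). The 1 Ovgp1-zero cell with a count lay within the range of the Ovgp1-high cells. In run 3 it stood at 1015 CPM in Ovgp1-high and 62.3 CPM in Ovgp1-zero cells, and in run 7 at 346 CPM in Ovgp1-high and 0 CPM in Ovgp1-zero cells.

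Tbx2, a T-box transcription factor, had 31 counts in 6 Ovgp1-high cells and 7 counts in 5 Ovgp1-zero cells. The levels were 616.4 CPM in Ovgp1-high and 40.1 CPM in Ovgp1-zero cells, a log2 ratio of 3.94 (2.73 to 5.37). Run 7 carried most of it, with 1077 CPM in Ovgp1-high and 63.4 CPM in Ovgp1-zero cells, against 135.3 CPM in Ovgp1-high and 37.4 CPM in Ovgp1-zero cells of run 3. Aldoc, a fructose-bisphosphate aldolase of glycolysis, was counted in 14 of 26 Ovgp1-high and 13 of 88 Ovgp1-zero cells. Its level was 1690 CPM in Ovgp1-high and 200.6 CPM in Ovgp1-zero cells, a log2 ratio of 3.07 (2.49 to 3.69). The other glycolytic genes did not follow it together: Gapdh had a log2 ratio of -0.15 (-0.38 to 0.07), Ldha one of -0.19 (-0.55 to 0.15) and Pgk1 one of 0.98 (0.47 to 1.48).

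Wdr77, which encodes a partner of the arginine methyltransferase Prmt5, had 73 counts in 13 Ovgp1-high cells and 38 in 16 Ovgp1-zero cells. The levels were 1451 CPM in Ovgp1-high and 217.8 CPM in Ovgp1-zero cells, a log2 ratio of 2.74 (2.15 to 3.34). In the GENCODE M21 annotation Wdr77 lies next to Ovgp1 on the same strand, 3673 bases away, and a processed transcript named Gm42890 overlaps both genes. Whether reads of one were counted for the other was not tested. The 3 cells with the most Wdr77 counts, 21, 16 and 14, each had 64 or more Ovgp1 counts. Other cells with many Ovgp1 counts had fewer Wdr77 counts. Those with 69, 59, 58 and 44 Ovgp1 counts had 1, 5, 0 and 2, in that order. The next gene on the other side of Wdr77, Atp5f1, had 0 counts in Ovgp1-high and 2 in Ovgp1-zero cells. It had 3 counts in all pnd14 cells, too few to compare.

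Further named genes encode proteins of the cell surface or of cell contacts. Plet1, a glycosylphosphatidylinositol-anchored surface protein of epithelial progenitors, stood at 1312 CPM in Ovgp1-high and 338 CPM in Ovgp1-zero cells, a log2 ratio of 1.96 (1.43 to 2.49). Bcam, a laminin receptor, had a log2 ratio of 2.24 (1.63 to 2.85), and Pkp3, a desmosomal plakophilin, one of 2.33 (1.46 to 3.23). Ier3, an immediate early response gene, was the most frequent of the named higher genes in Ovgp1-high cells, in 19 of 26 Ovgp1-high and 39 of 88 Ovgp1-zero cells, with 2088 CPM in Ovgp1-high and 584.6 CPM in Ovgp1-zero cells and a log2 ratio of 1.84 (1.43 to 2.24). The other named genes were Fgl2, Ap1s2, Fbxo16, Rfc4, Plekhg5, Ctdspl, Dlgap4, Arid5a, Abca3 and Farp1. Their log2 ratios lay between 2.08 and 4.30, with 14 to 33 counts each in Ovgp1-high cells.

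**Figure D3:**
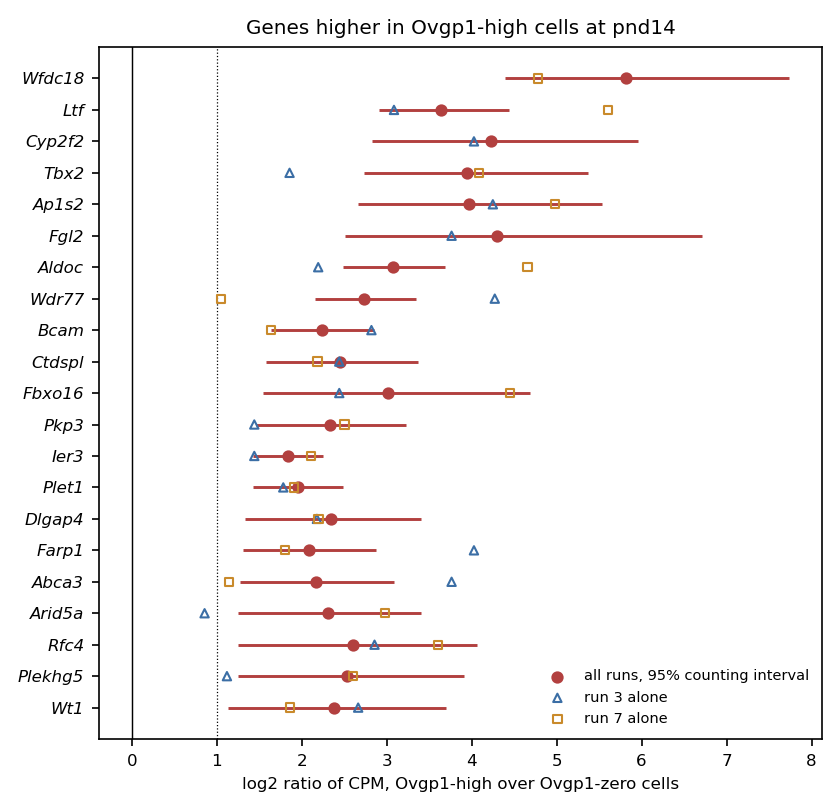
Log2 ratio of the level in Ovgp1-high over Ovgp1-zero cells for the 20 named higher genes and Wt1, with the 95% counting interval, and the ratio within run 3 and within run 7 where both groups had a count. All 21 pooled ratios lie above 1. For the 20 named genes this was fixed by the rule for naming, as was the shared direction of runs 3 and 7. Ltf, Tbx2 and Wdr77 differ in size between the runs.

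The fixed gene lists are set here beside the shares over all tested genes, 12% higher and 19.4% lower. Of 8 tested secretory and antimicrobial genes, 4 were at least 2-fold higher and 1 lower, with a median log2 ratio of 1.05 beside -0.15 over all tested genes. The median was 0.05 with 5 or more and 0.31 with 10 or more Ovgp1 counts against 0, and 0.35 with no muscle limit. The 4 were Wfdc18, Ltf, Clu and Muc1. Clu, the extracellular chaperone clusterin, stood at 835 CPM in Ovgp1-high and 252.2 CPM in Ovgp1-zero cells, a log2 ratio of 1.73 (1.08 to 2.37), and Muc1, a cell surface mucin, had one of 1.56 (0.54 to 2.57). On the lower side was Fcgbp, a mucus-associated protein, with 3 counts in Ovgp1-high and 42 in Ovgp1-zero cells and a log2 ratio of -2.01 (-4.35 to -0.37). Of 7 tested oestrogen-responsive uterine genes, 3 were higher and 0 lower, with a median of 0.89, or 0.20 with no muscle limit. The 3 were again Ltf, Clu and Muc1, so both lists rest on the same genes.

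Of 9 tested genes of ion and fluid transport, 2 were higher and 2 lower, with a median of -0.26; the lower share is near the 19.4% of all tested genes. The higher ones were Slc9a3r1, a scaffold of ion transporters, at 1.66 (0.91 to 2.41), and Kcne3, a potassium channel subunit, at 1.57 (0.33 to 2.79). On the lower side, Slc12a2, the sodium, potassium and chloride cotransporter, had a log2 ratio of -1.40 (-2.91 to -0.19). Slc4a4, the sodium bicarbonate cotransporter, missed the limit of 20 counts: it had 15 counts in 7 Ovgp1-high cells and 1 count in 1 Ovgp1-zero cell, a log2 ratio of 5.70, whose interval reached 11.1.

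Of 14 tested keratin and junction genes, 3 were higher and 0 lower, beside 12% and 19.4% over all tested genes. The median of 0.47 turned to -0.26 with 5 or more and -0.17 with 10 or more Ovgp1 counts against 0, and to -0.33 without run 7. The 3 were Cldn10, a paracellular ion channel, at 1.17 (0.32 to 1.98), and the desmosomal genes Dsg2 and Pkp2 at 1.51 and 1.53. Of 9 tested genes of antigen presentation and interferon response, 3 were higher and 3 lower, so the list went both ways. The genes of this list given next are from the higher side only. H2-D1, a classical class I molecule, stood at 1054 CPM in Ovgp1-high and 395.4 CPM in Ovgp1-zero cells, and B2m, its light chain, had a log2 ratio of 1.04 (0.14 to 1.91). Of 13 tested immediate early and heat shock genes, 2 were higher and 0 lower, namely Ier3 and the small heat shock gene Hspb1, at 1.23 (0.98 to 1.48). Fos, the most abundant of that list, had a log2 ratio of -0.30 (-0.48 to -0.14). Adh1, an alcohol dehydrogenase that oxidises retinol, had one of 2.24 (1.16 to 3.34), from 19 counts in 4 Ovgp1-high and 14 counts in 6 Ovgp1-zero cells.

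Of 8 tested genes of the uterine progesterone response, 0 were at least 2-fold higher and 4 lower, beside 12% and 19.4% over all tested genes. The median log2 ratio of -0.68 was -0.26 with 5 or more and -0.17 with 10 or more Ovgp1 counts against 0, -0.34 with no muscle limit, and 0.32 without run 4, so it gives no direction for the list. Gata2, a transcription factor that acts with the progesterone receptor in the uterus, was counted in 8 of 26 Ovgp1-high and 59 of 88 Ovgp1-zero cells. Its level was 397.7 CPM in Ovgp1-high and 1014 CPM in Ovgp1-zero cells, a log2 ratio of -1.35 (-2.10 to -0.68). It was lower in each run, with 473.5 CPM against 972 CPM in run 3, 840 CPM against 1831 CPM in run 4, and 192.4 CPM against 665.9 CPM in run 7. The other 3 were Calb1, Cited2 and Errfi1, with 2 to 4 counts each in Ovgp1-high cells and intervals that reached past 0. Pgr, the receptor itself, had 1 count in Ovgp1-high and 14 in Ovgp1-zero cells.

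Acot7, an acyl-CoA thioesterase prominent in pnd14 epithelium, stood at 1173 CPM in Ovgp1-high and 2613 CPM in Ovgp1-zero cells, a log2 ratio of -1.16 (-1.57 to -0.76). Within run 3 it had 541.2 CPM in Ovgp1-high and 2740 CPM in Ovgp1-zero cells, and within run 7 it had 1578 CPM and 2664 CPM in the same order. Hilpda, a lipid droplet protein induced by hypoxia, had a log2 ratio of -1.38 (-2.64 to -0.32). Other genes prominent at pnd14 did not follow, among them Cited4 at -0.07 (-0.40 to 0.25) and Cbr2 at -0.21 (-0.58 to 0.15). The list of pnd14 epithelial genes was chosen on these same cells. Of its 14 tested members 2 were higher and 4 lower, beside 12% and 19.4% over all tested genes. Its median log2 ratio was -0.17, beside -0.15 over all tested genes, so the list as a whole was not set apart.

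Genes of oxidative phosphorylation were at or below the level of Ovgp1-zero cells. Of 24 tested, 0 were at least 2-fold higher and 5 lower, with a median of -0.53. The 5 included Cox5a, a subunit of cytochrome c oxidase, with 5 counts in Ovgp1-high and 69 in Ovgp1-zero cells and a log2 ratio of -1.99 (-3.66 to -0.70), and Ndufb7, of complex I, at -1.10 (-1.66 to -0.59). The share of 5 in 24 is near the 19.4% of all tested genes, so the count alone does not set the list apart.

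The named genes on the lower side were mostly of low level. Gigyf2, Kctd20, Lmna, Ktn1 and Itpr3 had 0 counts in Ovgp1-high cells against 30 to 41 in Ovgp1-zero cells. Lmna, which encodes the nuclear lamins A and C, had 39 counts in 15 Ovgp1-zero cells. With 3 counts set in place of its 0, the log2 ratio was -1.91, and the interval reached up to -1.54. Sumo3, a ubiquitin-like modifier, was counted in 3 of 26 Ovgp1-high and 46 of 88 Ovgp1-zero cells, a log2 ratio of -2.62 (-4.09 to -1.46). The histone H2A genes Hist1h2ao and Hist1h2ap had log2 ratios of -1.48 and -1.46, with 2247 CPM each in Ovgp1-high cells. These 2 genes are near-identical copies whose counts were equal in all but 1 of the compared cells, where they differed by 12, and the part of shared reads was not tested. Hmgb1-ps4, with 0 and 35 counts in the same order, is a pseudogene whose reads may be shared with its parent gene. Trim35, Cyth3, Nub1, Calu, Ptpn18 and Entpd8 had 1 to 4 counts in Ovgp1-high and 41 to 82 in Ovgp1-zero cells.

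The 26 cells differed among themselves along their Ovgp1 count. The classes with 0, 1, 2 to 9 and 10 or more counts held 88, 20, 15 and 11 cells. Tbx2 stood at 40.1, 0, 33.4 and 1476 CPM in these classes, in that order, so 30 of its 31 counts in Ovgp1-high cells fell in the 11 cells with 10 or more. Plet1 stood at 338, 408.8, 433.8 and 2608 CPM, and Wdr77 at 217.8, 408.8, 400 and 3002 CPM, both high in the top class alone. Aldoc was higher in each class than in the one before, with 200.6, 272.5, 934.3 and 2805 CPM. Ap1s2, a subunit of a clathrin adaptor, had 27 counts in the top class and 0 in the class of 2 to 9.

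Ltf and Wfdc18 were already above the Ovgp1-zero level at low Ovgp1 counts. Ltf stood at 114.6, 613, 1635 and 1132 CPM and Wfdc18 at 22.9, 454.2, 1168 and 1476 CPM in the 4 classes. In the 20 cells with 1 Ovgp1 count, which the comparison left out, 17 of the 27 Ltf counts and 9 of the 20 Wfdc18 counts lay in 1 cell each. Without that cell Ltf stood at 238.7 CPM and Wfdc18 at 283.3 CPM in this class. Bcam had the opposite order within the Ovgp1-high cells, with 4 counts in the cells with 10 or more and 53 in those with 2 to 9, a log2 ratio of -3.17 (-5.10 to -1.73). Its levels over the 4 classes were 240.7, 704, 1768 and 196.8 CPM.

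Acot7 and Gata2 were lowest in the top class. Acot7 stood at 2613, 2816, 1835 and 196.8 CPM and Gata2 at 1014, 817.5, 633.97 and 49.2 CPM over the classes. In the 11 cells with 10 or more Ovgp1 counts, Acot7 had 4 counts, and against the Ovgp1-zero cells a log2 ratio of -3.73 (-5.61 to -2.36). Gata2 had 1 count there and a log2 ratio of -4.37 (-9.68 to -1.87). The lower values of both genes in Ovgp1-high cells thus lay mostly in these 11 cells. In the comparison of the 11 cells with the Ovgp1-zero cells, which shares those cells with the main one, 16.5% of 2055 tested genes were at least 2-fold higher and 22.9% lower.

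**Figure D4:**
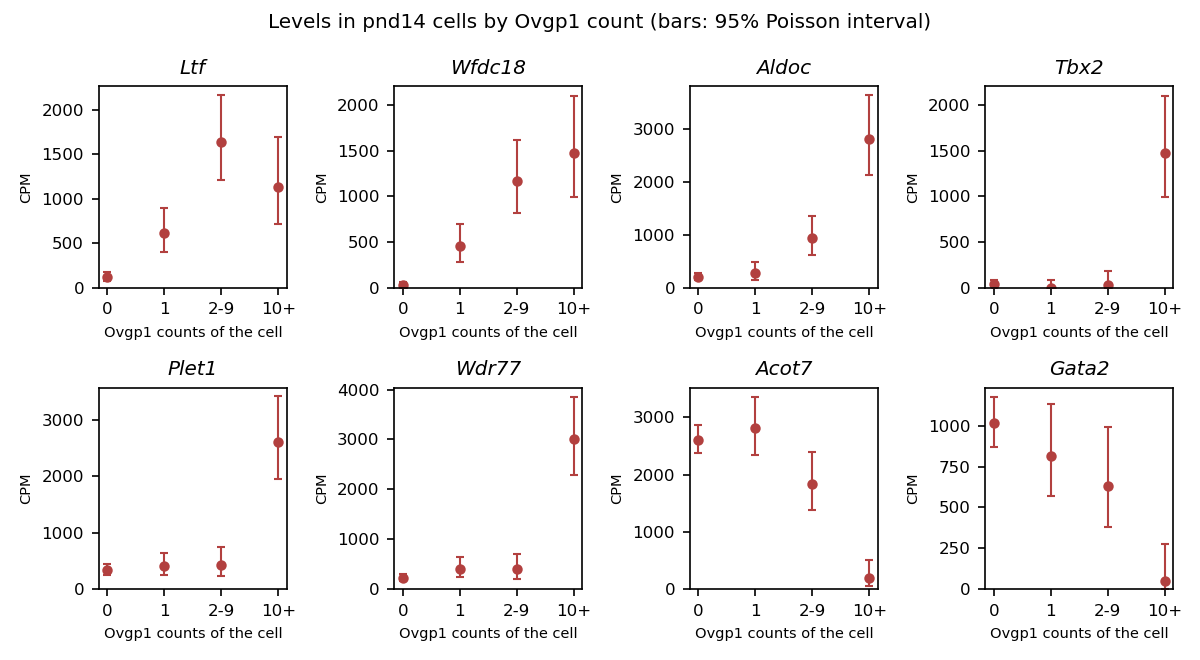
Level in CPM of 8 genes in pnd14 cells with 0, 1, 2 to 9 and 10 or more Ovgp1 counts, with the 95% Poisson interval. Tbx2, Plet1 and Wdr77 are high in the top class only (1476, 2608 and 3002 CPM), Ltf and Wfdc18 are raised in lower classes too, and Acot7 and Gata2 are lowest in the top class.

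Some single Ovgp1-high cells showed 2 patterns, chosen here after the values were seen, that did not divide all cells between them. The 8 cells with 28 or more Ovgp1 counts had 1 Ltf count and 8 Wfdc18 counts among them, all in 1 cell, while 4 of the 8 held Tbx2 with 2 to 12 counts. In contrast, the cell with 27 Ltf and 12 Wfdc18 counts had 7 Ovgp1 counts, and the cell with 16 Wfdc18 and 3 Ltf counts had 21. Other cells broke the patterns. The cell with 16 Ovgp1 counts held 3 Tbx2, 9 Ltf and 6 Wfdc18 counts together. Among the cells that the muscle limit removed, the cell with 39 Ovgp1 counts held 24 Wfdc18 and 16 Ltf counts. Several Ovgp1-high cells had no count of Tbx2, Ltf or Wfdc18. A cell with 2 Ovgp1 counts held 15 Ltf, 3 Wfdc18, 3 Wt1 and 3 Cyp2f2 counts. Cells just inside the limit of 2 could therefore carry the accompanying genes.

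The defining ciliated cell genes had few counts in the compared cells. Foxj1, the master factor of motile cilia, has no row in the table and was not analysed here. Ccno, a cyclin-like protein needed for centriole amplification, had 1 count in Ovgp1-high and 3 in Ovgp1-zero cells. Mcidas, its upstream regulator, had 0 and 1 counts and Tppp3, a microtubule protein of ciliated cells, 2 and 2 counts in the same order. Of 34 genes of ciliogenesis regulation and centriole amplification, 23 had a row and 3 were tested. None of the 3, Rfx1 (-0.43), E2f5 (0.67) and Ccdc78 (-0.45), differed by 2-fold. The whole list summed to 1193 CPM in Ovgp1-high and 1077 CPM in Ovgp1-zero cells, a log2 ratio of 0.15 (-0.30 to 0.57).

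Of 61 motile cilium genes, 43 had a row and 3 were tested. Capsl, a calcium-binding protein of ciliated tissues, had 16 counts in 6 Ovgp1-high cells and 14 counts in 10 Ovgp1-zero cells, a log2 ratio of 1.99 (0.86 to 3.13). It stood at 744.1 CPM in Ovgp1-high and 74.7 CPM in Ovgp1-zero cells of run 3, and at 153.9 CPM and 63.4 CPM in run 7. Nme7, the most abundant of the list, had a log2 ratio of -0.01 (-0.36 to 0.32). Prom1 and Ccdc153, with 10 and 8 counts in Ovgp1-high cells, owed them mostly to 1 cell each, with 10 and 7 counts. The whole motile cilium list summed to 3579 CPM in Ovgp1-high and 2631 CPM in Ovgp1-zero cells, a log2 ratio of 0.44 (0.19 to 0.70), with a count in 25 of 26 and 75 of 88 cells. A single Ovgp1-high cell held 45 of the counts, and without it the log2 ratio was 0.11 (-0.17 to 0.39).

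Ccno lay mostly in cells that the muscle limit had removed. Of 39 Ccno counts at pnd14, 32 were in the 39 cells at or over the limit. Of these, 31 were in 4 of the 8 removed cells with at least 2 Ovgp1 counts, against 1 in the 27 removed cells with 0 Ovgp1 counts. These 4 cells held 16, 3, 3 and 39 Ovgp1 counts and 7, 15, 2 and 7 Ccno counts, with 5 to 14 muscle counts and totals of 2459 to 7103 counts. They came from all 3 runs. Other genes of the ciliogenesis list gave 11, 26, 2 and 6 counts in them, and the motile cilium list 26, 32, 15 and 7. Over the removed cells the ciliogenesis list summed to 2995 CPM with 2 or more Ovgp1 counts and to 584 CPM with 0, a log2 ratio of 2.36 (1.74 to 3.01). Ccno itself, which picked out these cells, gave 31 of the 83 list counts with 2 or more Ovgp1 counts and 1 of the 30 with 0. Much of the rest lay in the cell with 15 Ccno counts, which held 26 counts of other list genes. The ratio without Ccno or without that cell was not computed. The motile cilium list stood at 3212 CPM in removed cells with 2 or more Ovgp1 counts and at 1850 CPM in those with 0. Its log2 ratio there was 0.80 (0.36 to 1.23). The 3579 CPM of the Ovgp1-high cells under the limit included the 1 cell with 45 counts, so these levels were not ranked. The totals of the 4 Ccno cells were above the median of 1770 counts of the removed cells, no doublet caller was run, and the part of doublets in this was not tested.

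The removed cells also gave values for the other genes in cells that the comparison did not use. The 8 removed cells with 2 or more Ovgp1 counts were set against the 27 with 0, with totals of 27710 and 51344 counts. Ltf had 32 and 6 counts in that order, a log2 ratio of 3.30 (2.03 to 4.85). Wfdc18 had 34 and 3 counts, a log2 ratio of 4.39 (2.72 to 6.74). For both genes the interval overlapped that under the limit. Aldoc stood at 3.16 (2.20 to 4.24), Tbx2 at 2.47 (0.94 to 4.29), Ier3 at 1.80 (1.09 to 2.55), Wdr77 at 1.99 (0.61 to 3.52) and Plet1 at 1.58 (0.52 to 2.70). Of the 20 named higher genes, 10 had at least 20 counts here. Of these, 8 were at least 2-fold higher, where 15% of all tested genes were. With fewer counts allowed, 17 named higher genes had a ratio and 10 were at least 2-fold higher. Among those with fewer counts, Cyp2f2 (0.697), Rfc4 (0.404) and Pkp3 (0.153) stayed under 2-fold. Bcam (-2.11) and Abca3 (-1.81) went the other way. The intervals of these low genes all reached past 0.

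Some genes did not go the same way in the removed cells. Ctdspl had 1 count with 2 or more Ovgp1 counts and 26 with 0, a log2 ratio of -3.81 (-9.17 to -1.20), and Dlgap4 had one of -2.36 (-5.50 to -0.31). Wt1 had 8 and 34 counts in the same order, a log2 ratio of -1.20 (-2.52 to -0.06), the reverse of its direction under the limit. Acot7, with 54 and 82 counts, had a log2 ratio of 0.29 (-0.24 to 0.80), and 41 of the 54 came from 1 cell. Of the 15 named lower genes, 5 were tested and 4 were at least 2-fold lower, where 18.9% of all were. The fifth, Ptpn18, went the other way, with 14 and 11 counts and a log2 ratio of 1.24 (-0.01 to 2.52).

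Other cell types were uneven among the removed cells. Stromal genes summed to 60 counts with 2 or more Ovgp1 counts and 287 with 0, endothelial genes to 3 and 78, and the smooth muscle genes beyond those of the rule to 4 and 64. The removed cells without Ovgp1 thus held more mesenchymal and endothelial RNA, and its part in these ratios was not tested. Under the limit the same lists were closer. Stromal genes stood at 835 CPM in Ovgp1-high and 1032 CPM in Ovgp1-zero cells, endothelial genes at 616.4 CPM and 573.1 CPM, and smooth muscle genes at 139.2 CPM and 166.2 CPM. The 4 muscle genes of the rule themselves had 278 CPM in Ovgp1-high and 217.8 CPM in Ovgp1-zero cells. Immune genes stood at 278 CPM in Ovgp1-high and 223.5 CPM in Ovgp1-zero cells, with no count of Ptprc in either. Erythroid genes had 3 counts in Ovgp1-high and 77 in Ovgp1-zero cells, mostly alpha globin, of which 1 Ovgp1-zero cell held 25 Hba-a1 counts.

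**Figure D5:**
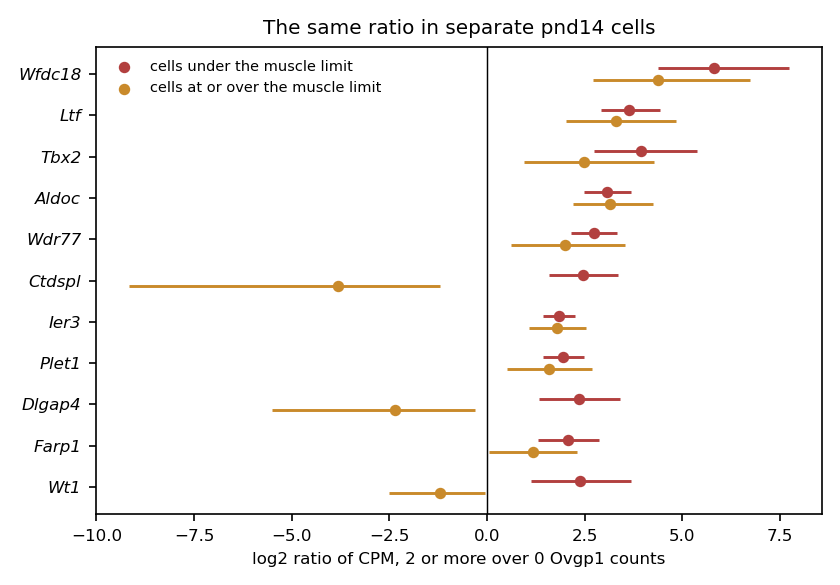
Log2 ratio of the level in cells with 2 or more over cells with 0 Ovgp1 counts, for the named higher genes with at least 20 counts in the removed cells and for Wt1, under the muscle limit (26 and 88 cells) and at or over it (8 and 27 cells), with 95% counting intervals. The intervals of Wfdc18, Ltf, Aldoc and Ier3 overlap between the sets, whereas Ctdspl, Dlgap4 and Wt1 lie on opposite sides of 0.

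Cells with at least 2 Ovgp1 counts were most frequent at pnd14. Under the same muscle limit they were 9 cells at pnd0 (5.26%, 2.43% to 9.76%), 9 at pnd7 (3.47%, 1.601% to 6.49%), 26 at pnd14 (19.4%), 0 of 48 at pnd28 and 0 of 44 at pnd56. The exact upper limits of these shares of 0 are 7.40% at pnd28 and 8.04% at pnd56, and the floor of 3 counts corresponds to 6.25% and 6.82%. The highest cell had 23 counts at pnd0 and 5 at pnd7, and the level was 146.7, 42.7, 2455, 0 and 0 CPM at the 5 ages. Median depth per cell was 3026, 2492, 1794, 1568.5 and 1622.5 counts, so the peak was not at the age of deepest cells. Each run holds cells of 1 age, so age and run cannot be told apart.

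The accompanying genes had their own courses over age. Ltf stood at 22.7, 31.3, 442.7, 2048 and 2963 CPM from pnd0 to pnd56, so it was highest where Ovgp1 was not counted. Wfdc18 stood at 0, 38.5, 331.1, 110 and 364.1 CPM and Cyp2f2 at 5.24, 2.85, 152.5, 48.8 and 0 CPM. Tbx2 was highest at pnd0, with 165.9 CPM, against 44.2, 141.4, 97.5 and 37.7 CPM at the later ages. Wt1 stood at 48.9, 11.4, 141.4, 36.6 and 0 CPM from pnd0 to pnd56. Cyp2f2 and Wt1 had their maximum at pnd14, as Ovgp1 did, but Cyp2f2 had 4 counts or fewer at each other age.

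The genes that went with Ovgp1 at pnd14 went with it only in part at the younger ages. At pnd0 the 9 cells with 2 or more Ovgp1 counts were set against 160 cells with 0. Wt1 had 14 and 12 counts in that order, a log2 ratio of 4.18 (2.96 to 5.42), Plet1 one of 3.26 (2.65 to 3.86) and Wdr77 one of 1.98 (1.02 to 2.85). Of the 20 named higher genes, 15 were tested and 3 were at least 2-fold higher, where 13.6% of all tested genes were. Wfdc18 was not counted at pnd0 in either group. At pnd7 the 9 cells with 2 or more Ovgp1 counts had no count of Ltf, Wfdc18 or Wt1. These cells held 29361 counts in all, and the log2 ratio intervals reached up to 2.04, 1.72 and 3.96. The absence of counts therefore does not show that these genes were not higher there. Of 17 tested named higher genes, 1 was at least 2-fold higher at pnd7, where 13.3% of all were.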

How the data were processed

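Each deposited value is a count, a whole number, for 1 of 12479 genes in 1 of 714 cells. The submitters' processing notes name TopHat, Cuffnorm and build mm9, with no roles or versions. Totals differ from cell to cell, so the values were read as raw counts. Collapsing of molecular identifiers is not stated in the sources used here, so intervals cover counting error only. Rows that share a name were summed (1 name). The highest correlation of log counts between pnd14 cells was 0.50, which gave no sign of a cell deposited in duplicate. The members, the 32 gene lists and the rule for named genes were chosen with earlier results of these data known.

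Counts were summed over the cells of a group and divided by the group total. Levels carry exact Poisson intervals (95%). The interval of a ratio is the exact binomial one conditional on the summed count, and that of a share of cells is Clopper-Pearson. Genes needed 20 counts over both groups and a 2-fold ratio to be called. With 0 counts in one group, 3 counts set in place of the 0 gave the value, a convention and not a limit of the interval. No ratio was given where both groups had 3 or fewer. Calls were checked on simulated counts. Alternatives were thinning, other Ovgp1 and muscle limits, other scalings, other count minimums and leaving out each run. Gene neighbours came from GENCODE M21 and promoters from RefSeq GRCm38.p6, both of another build than the authors', so mm9 coordinates were not used. Python 3.11.15, numpy 2.4.6, pandas 2.3.3 and scipy 1.17.1 were used. Wdr77 neighbours and the patterns of single cells were looked at after the values were seen.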

Additional observations from a re-analysis of the deposited data

Results flagged for a closer look

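Signal was also present in cells outside the comparison. Among the 39 pnd14 cells at or over the muscle limit, 8 had 2 or more Ovgp1 counts. Of the 39 cells, the 23 with 5 to 19 muscle counts stood at 2663 CPM of Ovgp1, and the 16 with 20 or more stood at 151.4 CPM. At pnd0, 9 cells had 2 or more Ovgp1 counts, 3 in run 1 and 6 in run 2. At pnd7, 9 cells did, 3 in run 5, 0 in run 6 and 6 in run 10. No cell of pnd28 or pnd56 under the limit had an Ovgp1 count.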

How the results depend on the processing

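The number of genes past 2-fold moved by more than 1.5 times with the depth required, and is given here as a share of the genes tested. It was 12% higher and 19.4% lower of 2324 genes as reported. After thinning to 1000 counts per cell it was 9.49% and 17.3% of 1106 genes. With a minimum of 10 counts it was 15.8% and 20.1% of 3718 genes, with 50 it was 7.27% and 13%, and with 100 it was 3.801% and 8.77%. With no minimum it was 17.5% and 16% of 5318 genes. Leaving out 1 run gave 11.4% to 13.1% higher and 19.8% to 21.5% lower; without run 3 it was 11.4% and 19.8% of 1411 genes, and without run 7 12.2% and 21.5% of 1473 genes. Median-of-ratios scaling shifted all log2 ratios by 0.13, and the higher genes were then 47.3% of those past 2-fold, against 38.2% as reported. Of the 20 named higher genes, 16 were at least 2-fold higher in all 16 settings that were run for genes, and of the 15 named lower genes, 4 were at least 2-fold lower. Bcam reversed to -0.29 where only cells with 10 or more Ovgp1 counts were set against those with 0. The median of the stroma list, from 5 tested genes at -1.66, was 0.21 with a minimum of 10 counts and 0.10 with none; both alternatives add low genes. Ltf had its lowest log2 ratio, 1.06, and Wfdc18 its lowest, 3.798, where groups were formed from thinned Ovgp1 counts (33 and 93 cells). Rfc4 was at 0.50 in that setting, Plekhg5 at 0.43 in cells with 0 muscle counts, and Wt1 at 0.60 and Ctdspl at 0.996 with no muscle limit; the cause was not tested. Leaving out the cells that held most of a list or gene was chosen after the data were seen; Ltf in cells with 1 Ovgp1 count moved the most, to 238.7 CPM against 613 CPM. No paired analysis was possible because the labels name no animal and all pnd14 cells are 1 sample. With 26 cells and 50293 counts in the Ovgp1-high group, 1 count is worth about as much as 3 in the other group, and genes of few counts cannot be compared.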

Other observations

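Values of further genes from the lists are given here. Smo, the transducer of Hedgehog signals, was counted in 11 of 26 Ovgp1-high and 17 of 88 Ovgp1-zero cells, a log2 ratio of 1.85 (1.002 to 2.70). Of the cell cycle genes, Mcm5, a helicase subunit of DNA replication, had 12 counts in 3 Ovgp1-high cells and 2 counts in 2 Ovgp1-zero cells, which was under the 20 counts needed for a call, and Pcna, the sliding clamp, had 4 and 37 counts in the same order. The S phase list as a whole had 1 higher and 1 lower gene of 6 tested, beside 12% and 19.4% over all tested genes. Itgb4, an integrin of hemidesmosomes, stood at 1571 CPM in Ovgp1-high and 831 CPM in Ovgp1-zero cells, a log2 ratio of 0.92 (0.50 to 1.32), under the 2-fold limit.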
